A study of Mus musculus with 11 samples.

Results

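Dual-specificity MAP kinase phosphatases are the enzymes that switch MAP kinases off, and the 9 genes described here, Dusp1, Dusp2, Dusp4, Dusp5, Dusp6, Dusp7, Dusp8, Dusp10 and Dusp16, were taken by symbol from the 36529 genes listed in the count tables. All 9 were listed and all 9 passed the filter on low counts in every comparison. The counts came from BV2 cells, a transformed mouse microglial line labelled as C57BL/6 in strain, so every library rests on the same line. In the nApoE4 experiment, 3 libraries came from cells given the amino-terminal fragment of human apolipoprotein E4, residues 1 to 151, at 25 µg/ml for 5 h (nApoE4), and 3 came from untreated cells labelled as its controls (ControlA). In the nApoE3 experiment, 2 libraries came from cells given the same stretch of apolipoprotein E3 at 25 µg/ml for 5 h (nApoE3), and 3 came from their own untreated controls (ControlB). The fragments differ at a single position, a cysteine in nApoE3 and an arginine in nApoE4. The labels name PBS as the vehicle while the study's methods give conditioned medium for the control wells, and which of these the control cells received was not settled here. The fragment and the experiment in which it was given cannot be told apart, because no library of either fragment shares controls with the other.

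MAP kinases (ERK, JNK and p38) are turned on when a MAP2K phosphorylates a threonine and a tyrosine in their activation loop, and these phosphatases remove both phosphates. Dusp1, Dusp2, Dusp4 and Dusp5 encode nuclear enzymes of the immediate-early type, Dusp6 and Dusp7 encode cytoplasmic enzymes directed at ERK, and Dusp8, Dusp10 and Dusp16 encode enzymes that prefer JNK and p38. In macrophages and microglia, Dusp1 is best known as a brake on p38 and on the production of inflammatory cytokines.

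Promoter sequence is shown for the 4 members that held a searched motif, to set the DNA next to the genes whose levels are given further on. A window from 250 bases before to 50 bases after the RefSeq start site (build GRCm38.p6) was matched for 8 of the 9 members, all but Dusp4, and searched on both strands for the cAMP response element (CRE) TGACGTCA, for AP-1 sites TGACTCA or TGAGTCA, for the E-box CACGTG, and for CArG and NF-kB boxes. The stretches run 5′ to 3′ on the gene's strand from base -250 to base -51, with matches in capitals, and in Dusp1 the upstream TGACGTC, a CRE without its last A, is in capitals too. Dusp1 is at chr17:26508523-26508722 (minus strand), Dusp2 at chr2:127335909-127336108 (plus), Dusp5 at chr19:53528895-53529094 (plus) and Dusp8 at chr7:142095335-142095534 (minus).
Dusp1: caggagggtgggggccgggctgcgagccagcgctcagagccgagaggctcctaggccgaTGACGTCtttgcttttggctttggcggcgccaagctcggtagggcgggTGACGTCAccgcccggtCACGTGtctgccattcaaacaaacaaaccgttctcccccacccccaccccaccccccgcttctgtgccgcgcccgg
Dusp2: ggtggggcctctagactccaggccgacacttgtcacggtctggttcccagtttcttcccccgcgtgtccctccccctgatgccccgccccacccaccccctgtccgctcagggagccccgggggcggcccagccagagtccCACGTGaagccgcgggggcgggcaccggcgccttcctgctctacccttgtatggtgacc
Dusp5: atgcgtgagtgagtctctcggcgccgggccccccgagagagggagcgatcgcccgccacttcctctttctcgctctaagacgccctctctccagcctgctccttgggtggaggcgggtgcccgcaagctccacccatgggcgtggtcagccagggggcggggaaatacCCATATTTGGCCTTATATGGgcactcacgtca
Dusp8: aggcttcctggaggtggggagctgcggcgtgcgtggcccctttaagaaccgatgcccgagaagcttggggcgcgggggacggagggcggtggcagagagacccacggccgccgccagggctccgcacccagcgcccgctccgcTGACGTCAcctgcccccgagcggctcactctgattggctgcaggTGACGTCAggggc
Dusp8, which codes for a phosphatase of JNK and p38, held a full CRE at -107 to -100 and another at -63 to -56. Its window lies inside the gene span (chr7:142079487-142095907, minus strand), so its start site is not the outermost 5′ end of the gene. The Dusp16 window likewise lies inside its gene span (chr6:134715468-134807063, minus strand). The Dusp7 start site is also not the outermost 5′ end. Its stretch from -250 to -51 (chr9:106368382-106368581, plus strand) ends inside the gene span (chr9:106368560-106375724). Which start sites the cells used was not tested. Dusp1 held a CRE at -143 to -136 and the shorter form at -191 to -185. The full CRE was found in 1.79% of all 32851 promoter windows and the shorter form, which the full one contains, in 3.21%. The CACGTG E-box was found in Dusp1 at -126 to -121, in Dusp2 at -109 to -104, and in 7.15% of all windows. Dusp5 held CArG boxes side by side at -82 to -73 and -72 to -63, a motif found in 1.63% of windows. Neither AP-1 (5.2% of windows) nor NF-kB boxes (8.46% of windows) were matched in the 8 windows. The Dusp6, Dusp7, Dusp10 and Dusp16 windows held none of these motifs. These matches are letters in a window and were not tested as binding sites.

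**Figure D1:**
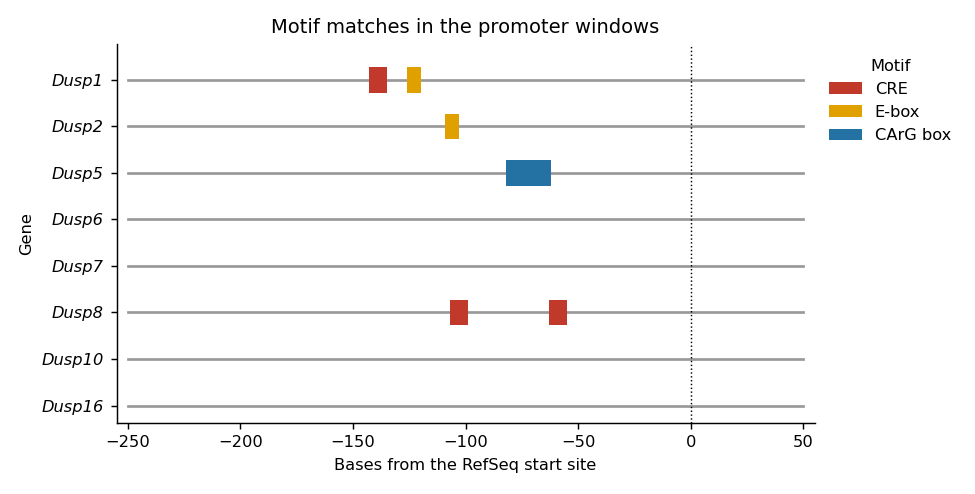
Motif matches in the promoter windows of 8 members, drawn by distance in bases from the RefSeq start site (x axis, 0 marks the start), with 1 row per gene and boxes to scale coloured by motif. Dusp8 has 2 CRE boxes and Dusp1 has a CRE and an E-box, Dusp2 has an E-box, Dusp5 has 2 adjoining CArG boxes, and the rows of Dusp6, Dusp7, Dusp10 and Dusp16 are empty. For Dusp8 and Dusp16 the window lies inside the gene span, and the Dusp7 start site also lies inside its gene span.

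Reads counted on genes ranged from 39732710 to 44162511 per library in the nApoE4 experiment and from 55809688 to 69768666 in the nApoE3 experiment. At that depth 3 counts, taken as the floor, correspond to between 0.043 and 0.0755 CPM (counts scaled to a common library size), which covers counting error only. The lowest count of any member in any library was 15 (Dusp8 in ControlB replicate 1). Of 13 microglia and macrophage markers, 10 reached 1 CPM in ControlA and in nApoE4 and 9 in ControlB and in nApoE3, with summed levels of 2576 to 4094 CPM over all libraries. P2ry12 was at 0 in every library and Aif1 and Cx3cr1 stayed under 1 CPM. Trem2 reached 1 CPM in ControlA and nApoE4 and stayed under it in ControlB and nApoE3. The marker sum was higher in the nApoE4 experiment (3687 to 4094 CPM) than in the nApoE3 experiment (2576 to 2932 CPM), and its part in the differences between experiments was not tested. Summed markers of neurons, astrocytes, endothelial cells, T cells and fibroblasts lay at or under 6.39 CPM in every library, with T cell markers at or under 0.211 CPM. The oligodendrocyte sum lay between 9.28 and 25.4 CPM, with Mog and Olig2 under 1 CPM.

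The first question was how each fragment moved the phosphatase genes against its own controls. With nApoE4, 6 of the 9 members rose (Dusp1, Dusp2, Dusp4, Dusp8, Dusp10 and Dusp16) and 2 fell (Dusp6 and Dusp7), while Dusp5 did not pass. With nApoE3, 7 rose (the same 6 and Dusp5) and the same 2 fell. Dusp8 moved furthest in either experiment, 45.7-fold higher with nApoE4 and 32.8-fold higher with nApoE3. The members that fell were those of the cytoplasmic ERK-directed class, and the members that rose were of the nuclear and the JNK and p38 classes. A call means an adjusted p under 0.05 in edgeR's quasi-likelihood test over all genes. Standard errors (SE) of log2 fold changes are approximate, taken from the fold change and the F statistic. The labels do not say that replicates came from separate cultures, so p-values measure the spread between these libraries.

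These counts are read against all genes, since most of the transcriptome moved. The members were chosen with earlier results of these data known, so their shares beside the background are a description and not a test. With nApoE4, 28.6% of 14240 genes tested were called higher and 28.6% lower. Of the members, 6 were higher (66.7%) and 2 lower (22.2%), the latter near the background share. With nApoE3, 33.1% of 14817 genes were called higher and 34.6% lower, beside 7 members higher (77.8%) and 2 lower (22.2%). With a fold above 2 asked as well, 3 members were higher (33.3%) and 2 lower (22.2%) with nApoE4, where 10.2% of genes were higher and 7.46% lower. Under the same rule 6 members were higher (66.7%) and 2 lower (22.2%) with nApoE3, where 9.6% of genes were higher and 6.57% lower. The median log2 fold change of the members was 0.81 with nApoE4 and 1.40 with nApoE3, beside 0.00128 and -0.00261 over all genes tested.

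**Figure D2:**
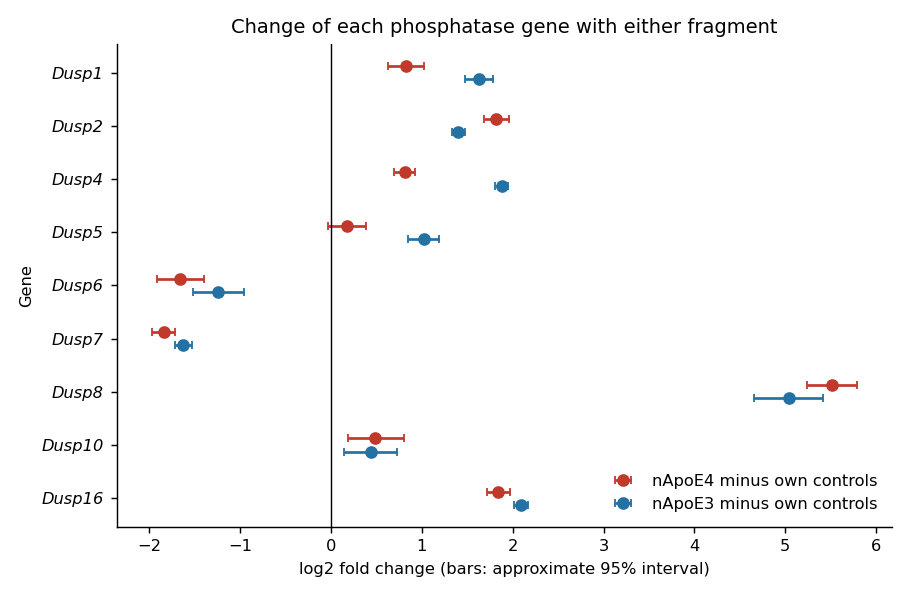
log2 fold change of each member (x axis) with nApoE4 against ControlA (red) and nApoE3 against ControlB (blue), with 1 row per gene; bars are approximate 95% intervals and the vertical line marks no change. Dusp6 and Dusp7 lie left of the line, Dusp8 lies beyond 5 with either fragment, and the nApoE4 interval of Dusp5 crosses the line.

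In the nuclear inducible class, Dusp2 had the highest mean level per kb of transcript in every group. It codes for an ERK- and p38-directed phosphatase of activated immune cells (chr2:127336159-127338377, plus strand, 4 exons). Dusp2 stood at 28.7, 32.4 and 29.1 CPM in ControlA and at 106, 105 and 106 CPM in nApoE4. In the nApoE3 experiment it stood at 35.7, 34.5 and 36.2 CPM in ControlB and at 95 and 93.1 CPM in nApoE3. Every treated library lay above every control, and the SD of the 3 nApoE4 libraries was 0.297 CPM. Dusp2 rose 3.53-fold with nApoE4 (log2 1.82, SE 0.062, edgeR adjusted p = 1.18e-08) and 2.64-fold with nApoE3 (log2 1.40, SE 0.032, adjusted p = 1.59e-12).

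Dusp1, the first described member of the family (chr17:26505591-26508472, minus strand, 4 exons), stood at 29.7, 38.1 and 32.6 CPM in ControlA and 61.2, 58.4 and 57.8 CPM in nApoE4. It stood at 20.1, 21.0 and 25.4 CPM in ControlB and 67.3 and 69.9 CPM in nApoE3. The groups did not overlap in either experiment, and the control libraries varied more than the treated ones in CPM. Dusp1 rose 1.77-fold with nApoE4 (log2 0.83, SE 0.086, edgeR adjusted p = 2.7e-05) and 3.10-fold with nApoE3 (log2 1.63, SE 0.070, adjusted p = 6.28e-10).

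Dusp4 codes for another nuclear phosphatase of ERK and JNK (chr8:34807610-34819894, plus strand, 4 exons). It stood at 47.8, 47.1 and 46.3 CPM in ControlA and 82.3, 82.6 and 81.6 CPM in nApoE4. It stood at 38.1, 37.9 and 40.1 CPM in ControlB and 145 and 140 CPM in nApoE3, the highest CPM of any member. The groups were far apart beside a spread of 0.484 to 3.01 CPM (SD) within them. Dusp4 rose 1.75-fold with nApoE4 (log2 0.81, SE 0.051, edgeR adjusted p = 7.85e-07) and 3.67-fold with nApoE3 (log2 1.88, SE 0.032, adjusted p = 1.65e-13).

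Dusp5, whose product is specific to ERK in the nucleus (chr19:53529145-53541809, plus strand, 4 exons), stood at 10.9, 10.6 and 11.1 CPM in ControlA and 13.4, 12.5 and 10.9 CPM in nApoE4. It stood at 6.76, 5.54 and 6.30 CPM in ControlB and 12.5 and 12.8 CPM in nApoE3. In the nApoE4 experiment the groups overlapped, through nApoE4 replicate 3. The nApoE4 change was 0.18 on the log2 scale (95% interval -0.028 to 0.39, edgeR adjusted p = 0.126). Without nApoE4 replicate 3 it was 0.26 with adjusted p = 0.0427, so that library decides the call. With nApoE3, Dusp5 rose 2.03-fold (log2 1.02, SE 0.079, adjusted p = 1.84e-07), to a treated mean of 12.7 ± 0.245 CPM (SD, n = 2) beside 12.2 ± 1.27 CPM (SD, n = 3) with nApoE4.

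**Figure D3:**
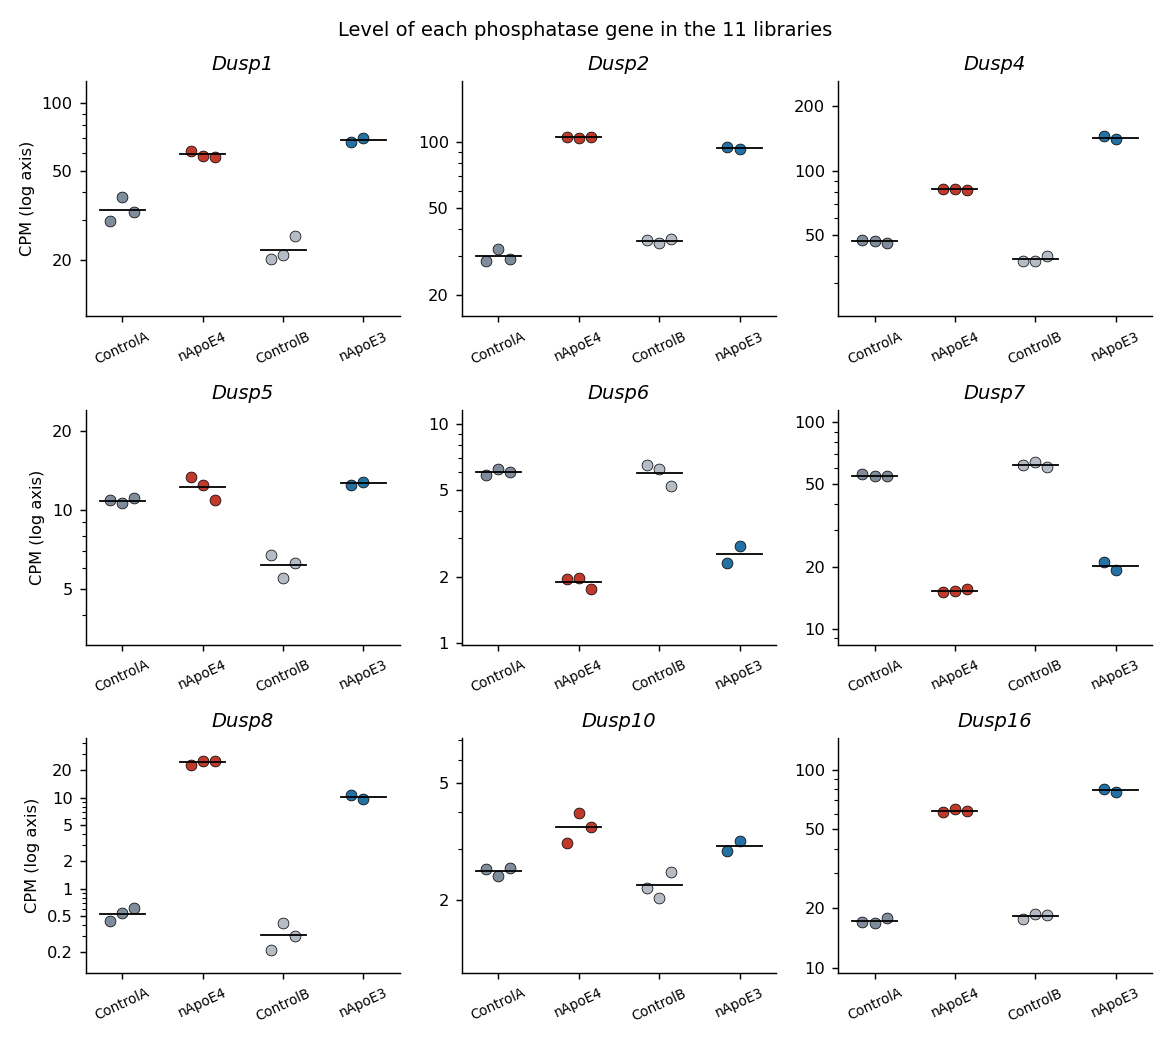
Level of each member (CPM, log axis) in the 11 libraries, with 1 panel per gene and the groups ControlA, nApoE4, ControlB and nApoE3 from left to right; points are libraries and lines are group means. Treated points lie above their own controls for Dusp1, Dusp2, Dusp4, Dusp8, Dusp10 and Dusp16 and below them for Dusp6 and Dusp7, while for Dusp5 the nApoE4 points reach down to ControlA.

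The cytoplasmic ERK-directed class moved the other way. Dusp7 (chr9:106368560-106375724, plus strand, 3 exons) codes for a phosphatase that binds ERK outside the nucleus, and was the main member of this class by level. Dusp7 stood at 55.9, 55 and 54.8 CPM in ControlA and 15.1, 15.3 and 15.6 CPM in nApoE4. It stood at 61.8, 64.0 and 60.9 CPM in ControlB and 21.2 and 19.3 CPM in nApoE3. No treated library came near a control. Dusp7 was 3.59-fold lower with nApoE4 (log2 -1.84, SE 0.056, edgeR adjusted p = 5.31e-09) and 3.09-fold lower with nApoE3 (log2 -1.63, SE 0.044, adjusted p = 8.99e-12).

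Dusp6, a feedback phosphatase of ERK whose own transcription is driven by ERK signalling (chr10:99263231-99267489, plus strand, 3 exons), stood at 5.82, 6.22 and 6.02 CPM in ControlA and 1.96, 1.97 and 1.76 CPM in nApoE4. It stood at 6.47, 6.25 and 5.20 CPM in ControlB and 2.32 and 2.76 CPM in nApoE3. The ranges were separate in both experiments. Dusp6 was 3.16-fold lower with nApoE4 (log2 -1.66, SE 0.11, edgeR adjusted p = 1.29e-06) and 2.37-fold lower with nApoE3 (log2 -1.24, SE 0.13, adjusted p = 2.54e-06). An overlapping long noncoding RNA, Gm34921, had 0 to 6 counts per library, beside 70 to 457 for Dusp6.

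In the class directed at JNK and p38, Dusp8 (chr7:142079487-142095907, minus strand, 7 exons) went from barely counted to readily counted. It had 19, 24 and 29 counts in ControlA and 988, 1053 and 1002 in nApoE4, or 0.446, 0.535 and 0.621 CPM against 23.0, 25.3 and 25.2 CPM. It had 15, 26 and 17 counts in ControlB and 625 and 546 in nApoE3, or 0.212, 0.420 and 0.302 CPM against 10.7 and 9.67 CPM. All control counts lay above the floor of 3, so these folds are estimates and not bounds. The rise was 45.7-fold with nApoE4 (95% interval 37.8 to 55.2, log2 5.51, SE 0.12, edgeR adjusted p = 9.84e-10). It was 32.8-fold with nApoE3 (95% interval 25.3 to 42.5, log2 5.04, SE 0.17, adjusted p = 7.32e-11). Dusp8 ranked 67 from the top of 14240 genes by log2 fold change with nApoE4 and 84 from the top of 14817 with nApoE3. A long noncoding RNA that overlaps it, Gm32786, had 2 to 4 counts in ControlA and 10 to 24 in nApoE4, and 1 to 5 in the nApoE3 experiment. The strand setting of the counting was not given in the sources used here, so reads of that RNA and of Dusp8 may not be told apart, although its counts were small beside those of Dusp8.

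Dusp16 codes for a phosphatase that acts on JNK and p38 and moves between nucleus and cytoplasm (chr6:134715468-134807063, minus strand, 7 exons). It stood at 17.1, 17.0 and 17.9 CPM in ControlA and 61.4, 63.4 and 61.7 CPM in nApoE4. It stood at 17.8, 18.7 and 18.6 CPM in ControlB and 80.1 and 77.2 CPM in nApoE3. Controls of the experiments overlapped each other, and all treated libraries stood far above them. Dusp16 rose 3.59-fold with nApoE4 (log2 1.84, SE 0.057, edgeR adjusted p = 5.68e-09) and 4.27-fold with nApoE3 (log2 2.09, SE 0.036, adjusted p = 1.65e-13). Of its overlapping long noncoding RNAs, Gm36328 had 0 counts in every library, and 1700055D16Rik was not listed in the count tables, so its reads could not be seen.

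Dusp10, which codes for another JNK and p38 phosphatase (chr1:184034381-184075636, plus strand, 4 exons), moved least among the members that passed with both fragments. It stood at 2.56, 2.43 and 2.57 CPM in ControlA and 3.13, 3.95 and 3.55 CPM in nApoE4. It stood at 2.21, 2.04 and 2.50 CPM in ControlB and 2.94 and 3.17 CPM in nApoE3. The ranges did not overlap, but the gaps were under 1 CPM. Dusp10 rose 1.41-fold with nApoE4 (log2 0.49, SE 0.13, edgeR adjusted p = 0.0105) and 1.35-fold with nApoE3 (log2 0.44, SE 0.14, adjusted p = 0.0127). The nApoE3 call was lost with DESeq2 (log2 0.43, adjusted p = 0.0614) and without nApoE3 replicate 2 (log2 0.38, edgeR adjusted p = 0.0864).

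The second question was whether the response to nApoE4 differed from the response to nApoE3, tested as the log2 fold change with nApoE4 minus that with nApoE3 over all 11 libraries. Dusp1 and Dusp4 rose less with nApoE4 than with nApoE3, and Dusp2 rose more. The change of Dusp5, which passed with nApoE3 and not with nApoE4, was also smaller with nApoE4. Dusp16 rose less and Dusp7 fell further with nApoE4, both by small amounts. In all, the difference was positive and called for 1 member and negative and called for 5, where 14.4% of 15287 genes were called positive and 13.9% negative. The largest difference was that of Dusp4, at -1.08 on the log2 scale (SE 0.060, edgeR adjusted p = 9.17e-08). Those of Dusp5 and Dusp1 were -0.85 (SE 0.13, adjusted p = 0.000306) and -0.81 (SE 0.14, adjusted p = 0.000653). That of Dusp2 was 0.41 (SE 0.073, adjusted p = 0.00108).

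The smaller differences were less stable, and without nApoE3 replicate 1 the members with a called negative difference were 3. That of Dusp16 was -0.26 (SE 0.065, edgeR adjusted p = 0.00938), and without nApoE3 replicate 1 it was -0.23 with adjusted p = 0.0586. That of Dusp7 was -0.23 (SE 0.071, adjusted p = 0.0291), and it lost its call when any of ControlA replicate 1, nApoE4 replicates 1 or 2, ControlB replicates 1 or 3 or nApoE3 replicate 1 was left out, at -0.22 to -0.16 with adjusted p of 0.0597 to 0.197. For 3 members the test did not pass. Dusp6 differed by -0.43 (95% interval -0.80 to -0.06, adjusted p = 0.0794), Dusp8 by 0.47 (interval -0.11 to 1.04, adjusted p = 0.22) and Dusp10 by 0.0467 (interval -0.35 to 0.44, adjusted p = 0.883). These intervals do not show that the fragments act alike on these genes.

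The third comparison set the untreated groups side by side, to show how far the starting levels differed between the experiments. Dusp1, Dusp4, Dusp5 and Dusp8 were higher in ControlA than in ControlB and Dusp2 and Dusp7 were lower. These are 4 of 9 members higher and 2 of 9 lower, where 34.9% of 14249 genes were called higher and 34.4% lower, so the members were not far from the background. Dusp5 differed most, at 10.8 ± 0.278 CPM in ControlA and 6.20 ± 0.614 CPM in ControlB (SD, n = 3 each; log2 0.82, SE 0.086, edgeR adjusted p = 6.03e-05). Dusp1 was 0.61 higher on the log2 scale (SE 0.11, adjusted p = 0.00143) and Dusp4 0.30 higher (SE 0.046, adjusted p = 0.000564). Dusp8 was 0.80 higher (SE 0.29, adjusted p = 0.0376), a call that was lost with DESeq2 (adjusted p = 0.109) and without ControlA replicate 2 (0.80, adjusted p = 0.0534), ControlA replicate 3 (0.68, adjusted p = 0.119), ControlB replicate 1 (0.56, adjusted p = 0.124) or ControlB replicate 3 (0.78, adjusted p = 0.0899). Dusp2 differed by -0.22 (SE 0.056, adjusted p = 0.00796) and Dusp7 by -0.16 (SE 0.043, adjusted p = 0.0114).

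Dusp6, Dusp10 and Dusp16 did not pass between the controls. Their log2 differences were 0.0258 (95% interval -0.20 to 0.26), 0.18 (-0.10 to 0.47) and -0.0639 (-0.18 to 0.056). For Dusp1, Dusp4 and Dusp5, the members with the largest differences in response, the untreated level was higher in the nApoE4 experiment, where the log2 fold change was smaller. The control levels enter the difference in response, so this pattern is partly built in. Dusp2 followed it (-0.22 between controls, 0.41 between responses). Dusp8 (0.80 and 0.47, the latter not called) and Dusp7 (-0.16 and -0.23) did not. Experiment and depth move with the fragment here, and their part in these differences was not tested.

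Levels were compared between genes per length, as CPM per kb of the longest RefSeq-matched transcript. In ControlA, Dusp2 was highest at 18.6 ± 1.24 CPM per kb (SD, n = 3), and Dusp7 and Dusp4, both at 17.2, and Dusp1 at 16.8 ± 2.15 followed with overlapping ranges, Dusp1 also reaching into the range of Dusp2. Dusp5 (4.39), Dusp16 (3.40), Dusp6 (2.15), Dusp10 (0.903) and Dusp8 (0.111) came after, each clear of its neighbours. In ControlB the order of the first 4 was the same without overlap, from Dusp2 at 21.9 ± 0.539 through Dusp7 at 19.4 and Dusp4 at 14.1 to Dusp1 at 11.1. Dusp16 (3.60), Dusp5 (2.51), Dusp6 (2.14), Dusp10 (0.806) and Dusp8 (0.0648) followed, and only Dusp5 and Dusp6 overlapped.

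With nApoE4, Dusp2 stood at 65.4 ± 0.184 CPM per kb, Dusp4 at 30.0 and Dusp1 at 29.7 with overlapping ranges, and Dusp16 at 12.2. Dusp8 (5.11), Dusp5 (4.95) and Dusp7 (4.77) formed an overlapping group, above Dusp10 (1.27) and Dusp6 (0.679). Dusp7 thus went from among the highest members in ControlA to rank 7 of 9, and Dusp8 from rank 9 to rank 5. With nApoE3 the order was Dusp2 at 58.2 ± 0.844 CPM per kb (SD, n = 2), Dusp4 at 52.0, Dusp1 at 34.5, Dusp16 at 15.4, Dusp7 at 6.30, Dusp5 at 5.12, Dusp8 at 2.12, Dusp10 at 1.09 and Dusp6 at 0.909, with no overlap between neighbours. Dusp6 was the lowest member with either fragment.

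Summed over the 9 members, the level was 80.7 ± 3.14 CPM per kb in ControlA and 154 ± 1.09 in nApoE4 (SD, n = 3 each), and 75.6 ± 1.8 in ControlB (n = 3) and 176 ± 1.74 in nApoE3 (n = 2). The 4 nuclear inducible members held 70.5% of that sum in ControlA and 84.4% in nApoE4, and 65.6% in ControlB and 85.3% in nApoE3. The 2 cytoplasmic ERK-directed members went from 24.0% to 3.54% with nApoE4 and from 28.5% to 4.10% with nApoE3. The 3 members directed at JNK and p38 went from 5.48% to 12% and from 5.90% to 10.6%. These sums describe RNA, and in bulk samples fewer cells with a transcript and less transcript per cell cannot be told apart.

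**Figure D4:**
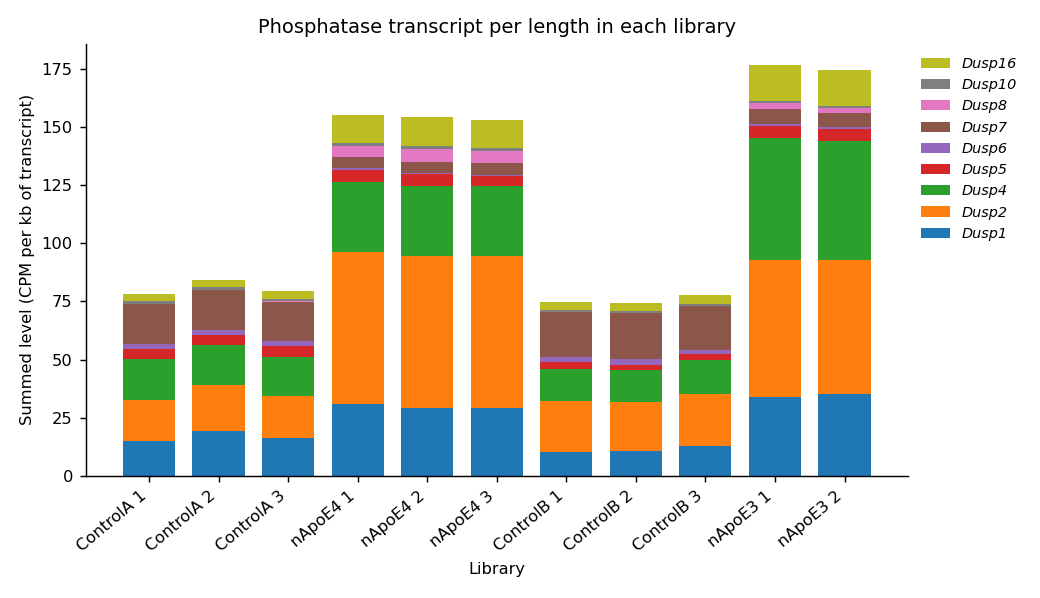
Stacked level of the 9 members (CPM per kb of transcript, y axis from 0) in each of the 11 libraries (x axis), coloured by gene. The stacks reach 78.4 to 84.3 in ControlA, 153 to 155 in nApoE4, 74.5 to 77.7 in ControlB and 174 to 177 in nApoE3, and the Dusp7 block shrinks in all treated libraries.

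The other genes of the MAP kinase cascades were read from lists, and in these paragraphs a change is a log2 fold change from edgeR; genes named without a value complete a count and were added after their values were seen. The kinases that the phosphatases act on changed less than the members by median, though members and lists were chosen with earlier results of these data known. Counts from the lists stand beside the shares over all genes, 28.6% higher and 28.6% lower with nApoE4 and 33.1% higher and 34.6% lower with nApoE3. Of 10 MAP kinase genes, 8 were tested in each comparison. With nApoE4, 2 were higher, 1 lower and 5 did not pass, at a median log2 fold change of 0.0167. With nApoE3, 3 were higher (Mapk11 among them), 3 lower (Mapk9 among them) and 2 did not pass, at a median of 0.0485. Mapk3, which codes for ERK1, had a log2 fold change of -0.13 with nApoE4 (edgeR adjusted p = 0.134) and fell by 0.55 with nApoE3 (adjusted p = 1.21e-07). Mapk8, the JNK1 gene, had 0.062 (adjusted p = 0.381) and rose by 0.21 (adjusted p = 0.00015). Mapk14, the p38 alpha gene, fell by 0.34 (adjusted p = 0.0055) and by 0.74 (adjusted p = 7.31e-06). Mapk11, the p38 beta gene, rose by 1.55 with nApoE4 (adjusted p = 2.97e-05) and Mapk7, the ERK5 gene, by 0.43 (adjusted p = 0.00021).

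Among the 7 MAP2K genes, which code for the kinases directly upstream, 3 fell and 4 did not pass with nApoE4 (median -0.126), and 3 rose (Map2k2 among them) and 2 fell with nApoE3 (median 0.0114). Map2k6, a p38 activator, fell by 1.44 with nApoE4 (edgeR adjusted p = 0.000162) and by 1.79 with nApoE3 (adjusted p = 8.69e-08). Map2k3, which also codes for a p38 activator, fell by 0.52 with nApoE4 (adjusted p = 0.000161) and by 0.0748 with nApoE3 (adjusted p = 0.0473). The nApoE3 call of Map2k3 was lost without ControlB replicate 1 (-0.076), ControlB replicate 3 (-0.061) or nApoE3 replicate 1 (-0.036) and under 6 other settings, which leaves 1 gene of the list lower. Map2k1, the MEK1 gene, fell by 0.17 with nApoE4 (adjusted p = 0.0264), a call lost without nApoE4 replicate 1 (-0.17), 2 (-0.18) or 3 (-0.17), and rose by 0.73 with nApoE3 (adjusted p = 4.09e-10). Map2k4, an activator of JNK, rose by 0.31 with nApoE3 (adjusted p = 4.78e-07).

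Of 15 MAP3K genes, 14 were tested. With nApoE4, 5 rose (Braf, Map3k4, Map3k5, Map3k8 and Zak) and 2 fell (Map3k1 among them; median 0.0873), and the count of those that fell was 1 without ControlA replicate 1 or 3 or without nApoE4 replicate 1 or 3. With nApoE3, 5 rose (Braf, Map3k6, Map3k7, Map3k8 and Zak) and 7 fell (median -0.113). Map3k8, which codes for the kinase that links inflammatory receptors to ERK, rose by 1.16 with nApoE4 (edgeR adjusted p = 6.23e-07) and by 1.51 with nApoE3 (adjusted p = 9.05e-10). Map3k1 fell by 1.96 (adjusted p = 1.04e-07) and by 1.06 (adjusted p = 4.86e-11). Map3k5, which codes for the stress kinase ASK1, rose by 1.69 with nApoE4 (adjusted p = 2.79e-07) and had 0.0363 with nApoE3 (adjusted p = 0.528). Braf rose by 0.46 with nApoE3 (adjusted p = 5.9e-08).

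All 10 genes for kinases activated by MAP kinases were tested, of which 5 rose and 4 fell with nApoE4 (median 0.138) and 5 rose and 5 fell with nApoE3 (median -0.0336). The genes that rose with either fragment were Mapkapk2, Mapkapk5, Rps6ka2, Rps6ka3 and Rps6ka4, and those that fell were Mapkapk3, Mknk2, Rps6ka1 and Rps6ka5, with Mknk1 falling in the nApoE3 experiment. The 5 that rose with nApoE4 were 3 without the filter on low counts and without ControlA replicate 1, nApoE4 replicate 1 or nApoE4 replicate 2. Mapkapk2, which codes for the p38 target MK2, rose by 2.00 with nApoE4 (edgeR adjusted p = 1.83e-08) and by 1.81 with nApoE3 (adjusted p = 2.35e-14). Its level went from 420 ± 29.2 to 1677 ± 22.7 CPM and from 458 ± 11.2 to 1613 ± 45.2 CPM. Mknk2, which codes for a kinase of the translation factor eIF4E, fell by 2.05 (adjusted p = 3.19e-09) and by 1.45 (adjusted p = 1.86e-12). Rps6ka2 rose by 0.85 with nApoE4 (adjusted p = 7.4e-05). Rps6ka5, the MSK1 gene, fell by 1.12 with nApoE3 (adjusted p = 1.52e-09) and by 0.29 with nApoE4 (adjusted p = 0.0264), the latter lost without ControlA replicate 3 (-0.20), nApoE4 replicate 1 (-0.28) or nApoE4 replicate 2 (-0.25).

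**Figure D5:**
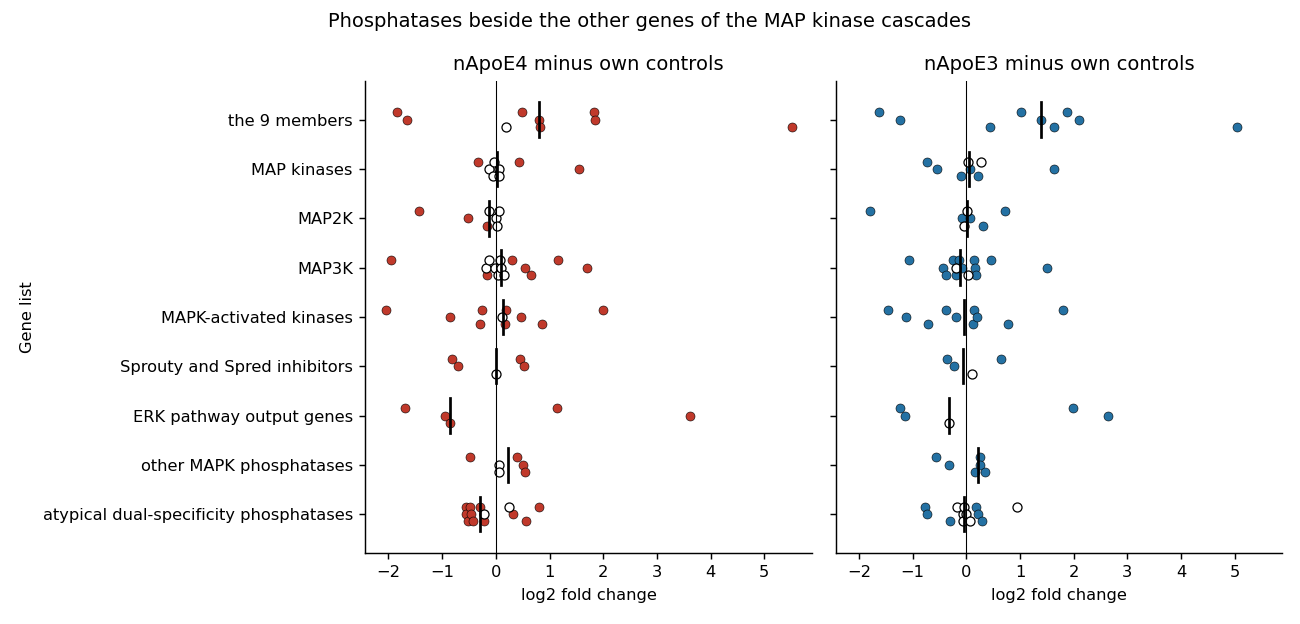
log2 fold changes (x axis) of the 9 members and of 8 lists of genes of the MAP kinase cascades (rows), with nApoE4 against ControlA at left and nApoE3 against ControlB at right; filled points passed the edgeR test, open points did not, and vertical bars mark list medians. The members' medians are 0.81 and 1.40, and all list medians lie between -0.849 and 0.234. Lists hold genes that moved both ways. By median absolute change the members stand at 1.66 and 1.63, the ERK pathway output genes at 1.13 and 1.23, and the other lists between 0.0748 and 0.547.

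Sprouty and Spred genes code for inhibitors of the route to ERK, and 5 of the 7 were tested with nApoE4 and 4 with nApoE3. With nApoE4, 2 rose and 2 fell (median 0.00815), and with nApoE3, 1 rose and 2 fell (median -0.0629). With DESeq2, 1 gene of the list fell with nApoE4. Spred1 rose by 0.44 (edgeR adjusted p = 0.000201) and by 0.64 (adjusted p = 1.33e-09), Spry2 fell by 0.70 (adjusted p = 0.000243) and by 0.36 (adjusted p = 0.00081), and Spred2 fell by 0.23 with nApoE3 (adjusted p = 6.3e-05). Spred3 rose by 0.53 with nApoE4 (adjusted p = 0.017), a call lost without nApoE4 replicate 2 (0.49), which leaves 1 gene of the list higher. Spry1, not named by the rule for its low level, was the other gene that fell with nApoE4.

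Genes known as transcriptional outputs of ERK gave a split picture. Of 8, 5 were tested, and Egr1, Epha2 and Epha4 were not. With nApoE4, 2 rose and 3 fell (median -0.849), and with nApoE3, 2 rose and 2 fell (median -0.321). Ccnd1, the cyclin D1 gene, fell by 1.70 (edgeR adjusted p = 6.98e-08) and by 1.14 (adjusted p = 5.65e-12). Etv5, which codes for an ETS factor, fell by 0.85 (adjusted p = 3.75e-06) and by 1.23 (adjusted p = 4.04e-11), in the direction of Dusp6. Phlda1 rose by 3.62 (adjusted p = 5.61e-08) and by 2.63 (adjusted p = 1.6e-08), and Fosl1, which codes for a Fos-family factor, rose by 1.13 with nApoE4 (adjusted p = 0.00148). Etv4 was the third gene that fell with nApoE4, and Fosl1 was also called higher with nApoE3.

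Other phosphatases were read from 2 further lists. Of 9 phosphatases that act on MAP kinases, 6 were tested, with 3 higher and 1 lower with nApoE4 (median 0.234) and 4 higher and 2 lower with nApoE3 (median 0.216), Ppp2ca being called with both and Ppp2cb with nApoE3. Ppm1a rose by 0.50 (edgeR adjusted p = 7.41e-05) and by 0.17 (adjusted p = 6.86e-05), and Ppm1b by 0.54 (adjusted p = 2.13e-05) and by 0.26 (adjusted p = 6.87e-06). Ppm1d, which codes for a p53-induced phosphatase of p38, fell by 0.49 (adjusted p = 0.00107) and by 0.57 (adjusted p = 1.69e-07). Ppp2ca rose by 0.35 (adjusted p = 7.5e-09) and Ptpn7 fell by 0.33 (adjusted p = 3.08e-07) with nApoE3. Of 16 genes listed as atypical dual-specificity phosphatases, apart from the members, 13 were tested, with 3 higher and 8 lower with nApoE4 (median -0.288) and 3 higher and 3 lower with nApoE3 (median -0.0455). Dusp22 also rose with nApoE4, and Dusp3 and Styx with nApoE3, where 5 genes of the list were higher without the filter on low counts. Dusp11 rose by 0.57 (adjusted p = 3.13e-05) and by 0.30 (adjusted p = 5.31e-07), and Dusp27 fell by 0.56 (adjusted p = 0.00689) and by 0.76 (adjusted p = 0.00345). Styxl1 rose by 0.81 with nApoE4 (adjusted p = 0.0054), and Dusp18 fell by 0.74 (adjusted p = 5.66e-07) and Dusp19 by 0.31 (adjusted p = 3.25e-05) with nApoE3. The median absolute log2 fold change of the members was 1.66 with nApoE4 and 1.63 with nApoE3, beside 0.358 and 0.337 over all genes tested. As the members were chosen with earlier results of these data known, this is a description.

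For each member, the genes with the most similar pattern were found by Pearson's r of log2 CPM, taken from the mean of the own controls, over the 11 libraries and among 11690 genes. The libraries of an experiment share controls, so r mainly follows the treated-to-control shifts and is given as a description. Dusp2 ran closest to Apobr (r = 0.9996) and Nfkbia (r = 0.9991), the latter coding for the NF-kB inhibitor IkB alpha. Dusp8 ran closest to Dram1 (r = 0.9987) and Fam46a (r = 0.9982), and Dusp16 to Slc11a2 (r = 0.9995) and Src (r = 0.9994). Dusp7 ran closest to Rab3il1 (r = 0.9992) and Zfp395 (r = 0.999), and Dusp6 to Eif2ak3 (r = 0.9954) and Gnpda1 (r = 0.9932).

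Among the remaining members, Dusp1 ran closest to Pilrb1 (r = 0.9932) and Samd9l (r = 0.9927), Dusp4 close to Usb1 (r = 0.9973), and Dusp5 to Rffl (r = 0.9784) and Hip1r (r = 0.9734). Dusp10 ran closest to Gm34346 (r = 0.9737) and F7 (r = 0.9649). The number of genes with r above 0.95 was 1110 for Dusp7, 1066 for Dusp8, 1055 for Dusp2, 1043 for Dusp16 and 917 for Dusp6, and 381 for Dusp1, 348 for Dusp4, 54 for Dusp5 and 8 for Dusp10.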

How the data were processed

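RNA from 11 libraries of BV2 cells was measured by sequencing. Per the submitters' processing notes, reads were handled with Trim Galore 0.5.0, FastQC 0.11.8, HISAT2 2.1.0 (build GRCm38.p6) and HTSeq 0.11.0, and the authors deposited raw counts per gene symbol for each sample. The annotation release, the strand setting and the overlap mode of the counting are not given in the sources used here. Rows of reads not counted on a gene were left out of library sizes; counted reads were 76.0 to 77.7% of the total.

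The count tables were tested with edgeR 4.0.16 under R 4.3.3 (filterByExpr, TMM, glmQLFit and glmQLFTest, two-sided), with Benjamini-Hochberg adjustment over all genes tested and a threshold of 0.05. Treated libraries were set against the controls of their experiment, the difference between fragments was a contrast over 4 group means, and CPM were scaled by TMM over the 11 libraries. The edgeR fits were run on simulated counts drawn independently from dispersions fitted to these data, which cannot show whether the replicates are independent. The members and gene lists were chosen with earlier results of these data known. Named list genes are at most 3 per list and comparison, those past the threshold with the largest change and a mean of at least 1 CPM, plus Mapk3, Mapk8 and Mapk14; where such a gene also passed the test of the difference, its values with both fragments are given. Map3k20 was matched as Zak. Some genes of the lists are not reported here. Levels per kb used GENCODE transcripts matched to RefSeq; promoters came from RefSeq. Alternatives were DESeq2 1.42.0, its size factors, other filters, thinning, a replicate block, all 11 libraries in the same fit, and leaving out each library. No library pair of a group agreed within counting noise (chi-square per degree of freedom 3.15 to 47.9). The value was 5.36 to 47.9 in the nApoE4 experiment, highest in the pairs with ControlA replicate 2 (25.8 and 47.9). It was 3.15 to 4.34 in the nApoE3 experiment.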

Additional observations from a re-analysis of the deposited data

Results flagged for a closer look

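The response to nApoE4 differed from the response to nApoE3, by its own edgeR test over all 11 libraries, for 6 members. Over all genes, 4331 of 15287 passed that test. The differences in log2 fold change, nApoE4 minus nApoE3, were -0.81 for Dusp1, 0.41 for Dusp2, -1.08 for Dusp4, -0.85 for Dusp5, -0.23 for Dusp7 and -0.26 for Dusp16. The values with each fragment and the alternatives that end the Dusp7 and Dusp16 calls are given in the report.

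Among the other MAP kinase genes, the difference was 1.64 for Map3k5, -0.91 for Map3k1, -0.91 for Map2k1 and 0.82 for Rps6ka5. It was 0.98 for Phlda1, -0.57 for Ccnd1, 0.37 for Etv5 and -0.62 for Mknk2. Map2k1 fell by 0.17 with nApoE4, a call that rests on single libraries, and rose by 0.73 with nApoE3. For the kinases and activators it was 0.40 for Mapk3, 0.39 for Mapk7 (0.0317 with nApoE3, edgeR adjusted p = 0.531), 0.38 for Mapk14, -0.46 for Map2k3, -0.29 for Map2k4 (0.0297 with nApoE4, adjusted p = 0.672) and -0.36 for Map3k8. For the phosphatases and inhibitors it was 0.32 for Ppm1a, 0.27 for Ppm1b, 0.37 for Ptpn7 (0.0528 with nApoE4, adjusted p = 0.433), 0.25 for Dusp11 and -0.21 for Spred1. The calls of Mapk14, Spred1 and Map3k8 were narrow (adjusted p = 0.0478, 0.0443 and 0.0225). Without a library, Mapk14 lost its call when ControlA replicate 1, nApoE4 replicate 2 or 3, ControlB replicate 1 or 3 or nApoE3 replicate 1 was left out (0.28 to 0.40). Spred1 lost it without any library but ControlA replicate 2 or ControlB replicate 2 (-0.22 to -0.17), Map3k8 without nApoE4 replicate 1, ControlB replicate 1 or 2 or nApoE3 replicate 1 (-0.34 to -0.30), and Dusp11 without nApoE3 replicate 2 (0.23). Fragment and experiment cannot be told apart in any of these differences.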

How the results depend on the processing

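Of the members' log2 fold changes recomputed under the alternatives, 469 kept their direction and side of the threshold, 18 lost their call, 1 gained it and 7 changed sign. With each fragment against its own controls, no member changed sign. The sign changes were in values near 0. The Dusp10 difference between fragments was -0.0079 with counts thinned to the smallest library, -0.038 with the replicate block, and -0.025, -0.035 and -0.0061 without nApoE4 replicate 2, ControlB replicate 3 and nApoE3 replicate 1 (range over libraries left out -0.035 to 0.13). Dusp6 between the controls was -0.0011 without ControlA replicate 2 and -0.069 without ControlB replicate 3 (range -0.069 to 0.076). Among list genes, Map2k4 with nApoE4 was -0.0002 without nApoE4 replicate 1 (range to 0.044), Mapk7 with nApoE3 was -0.017 without nApoE3 replicate 1 (range to 0.078), and Map3k5 with nApoE3 was -0.0035 with the replicate block and -0.0047 without ControlB replicate 3 (range to 0.079).

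Deviations of same-numbered samples from their group means were not positively correlated (-0.172 to -0.0386 in the nApoE4 experiment and -0.0126 to -0.00792 in the nApoE3 experiment). Whether such samples were prepared as pairs was not settled here. With the replicate block, 2307 genes differed between the fragments against 4331 without it, and the members with a negative difference went from 5 to 3. They were also 3 without the filter on low counts, and 3 to 5 when a library was left out (3 without nApoE3 replicate 1); the cause was not tested. The block also ended the calls in the difference of Dusp7 and Dusp16 (edgeR adjusted p = 0.197 and 0.0948) and of 8 list genes, Phlda1 (0.84, adjusted p = 0.0877), Etv5 (0.37, 0.0616), Map2k4 (-0.30, 0.0644), Ppm1a (0.32, 0.0702), Ppm1b (0.28, 0.0743), Dusp11 (0.26, 0.0821), Mapk14 (0.33, 0.231) and Spred1 (-0.21, 0.182). With nApoE4, the block left 1 MAP3K gene lower and 3 genes of the MAPK-activated kinases higher. Depth limits Dusp8 in the controls most, at 15 to 29 counts per library.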
